A study of Rattus norvegicus with 8 samples.

Results

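The enzymes that write and erase acetyl and methyl groups on histones, and the bromodomain proteins that bind acetylated histones, were examined in rat macrophages exposed to carbon nanotubes. Genes were taken by name: every probe whose gene name on the array begins with Kdm, Kmt, Hdac, Sirt, Setd, Prmt, Brd or Kat followed by a digit. This gave 68 gene names carried by 100 probes, out of 45598 probes that are not controls. Of the 68 genes, 60 had a probe that could be tested, out of 17444 genes tested on the whole array. The tested cells were NR8383 cells, a line of alveolar macrophages established from the lung lavage of a normal rat, incubated for 4 h with NM401, a multi-walled carbon nanotube, at 0.17 µg/mL in medium without serum (4 arrays). The controls were the same line without nanotubes for the same 4 h, also without serum (4 arrays). All 8 samples come from this single cell line, and the labels do not say whether the replicates were separate cultures, so p-values measure the spread between these samples, which may be technical.

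Histone acetyltransferases (the Kat genes) add acetyl groups to lysines, bromodomain proteins (Brd) bind the acetylated lysines, and the deacetylases (Hdac and the NAD-dependent sirtuins, Sirt) remove them. Lysine methyltransferases (Kmt and Setd) and arginine methyltransferases (Prmt) add methyl groups, and lysine demethylases (Kdm) remove them. In macrophages these proteins are known for shaping which inflammatory genes can be transcribed. The roles given below are those described for the human and mouse proteins.

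Values are log2 processed signal minus the 75th percentile of that array, here called scaled log2 signal, so each difference is relative to the array's own signal distribution. A ratio of scaled signal, where given below, is such a difference taken back from log2, and is not a ratio of unscaled signal. A gene was represented by its brightest tested probe. A gene was called when limma's Benjamini-Hochberg adjusted p, over all 21684 tested probes, was below 0.05. Levels of different probes were not set against each other, because probes differ in how brightly they report the same amount of RNA.

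The arrays differed in ways that run with the groups. The 75th percentile of the signal averaged 2692 ± 172 on the NM401 arrays and 1236 ± 224 on the control arrays (SD, n = 4 each). The scaled log2 signal of 7 spike-in probes averaged 0.93 ± 0.21 in NM401 and 3.22 ± 0.48 in controls, a difference of -2.29 (two-sided exact permutation p = 0.0286, the lowest value possible with 4 arrays in each group). Per the file headers, slide 1 carried all 4 control arrays and NM401 replicate 1, and slide 2 carried NM401 replicates 2 to 4. Each control array was in row 1 of its slide and each NM401 array in row 2, so the effect of the row and that of NM401 cannot be told apart. Of 11 macrophage markers with a probe, 9 were well above background on all 8 arrays, among them Cd68, Lyz2 and Csf1r, whereas Marco, a scavenger receptor of alveolar macrophages, was on none. None of the 7 epithelial markers was on all 8 arrays, and Epcam and Cdh1 were on none. Cd3d, Col1a2, Pecam1 and Cdh5 were on all 8 arrays, and the neutrophil granule gene Mpo was on 0 of 4 NM401 arrays and 4 of 4 control arrays. The part of these differences in the results below was not tested. RNA came from whole dishes, so fewer cells of a kind and less RNA per cell cannot be told apart.

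Among the 60 tested genes, judged by the brightest probe, 13 rose and 21 fell with NM401, and 26 were not called. The higher share was 21.7%, against 21.9% of all tested genes, and the lower share was 35%, against 35.4% of all tested genes. With Hdac1 and Hdac1l, whose probes lie at the same locus, counted as 1 gene, a count added after the values were seen, 20 of 59 fell (33.9%) and the median log2 difference was -0.14. Counting both directions, 56.7% of these genes were called, against 57.3% of all. The median log2 difference, NM401 minus control, was -0.15 over the 60 genes and -0.10 over all 17444 genes. The 2 groups of arrays did not overlap for 35 of the 60 genes (58.3%), against 53.2% of all genes. As a set, the chromatin genes moved at about the rate of the whole array. What follows concerns which of them moved, by how much, and how firmly.

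Called changes of at least 0.58 on the log2 scale were found for 3 genes higher at the brightest probe, Setd8, Prmt2 and Prmt6 (5%, against 7.10% of all genes). Prmt6 has a second probe that was called lower, and no direction is given for it as a gene. Such changes were found for 8 genes that fell, among them Brd1, Hdac8, Kat7, Kdm4b, Kmt2e, Prmt8 and Prmt10 (13.3%, against 15.4% of all genes). Under the reported scaling the differences spanned -0.97 for Hdac8 to 0.83 for Prmt2. The 26 genes that were not called had differences of -0.43 to 0.53 and adjusted p of 0.0527 to 0.879 (limma).

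**Figure D1:**
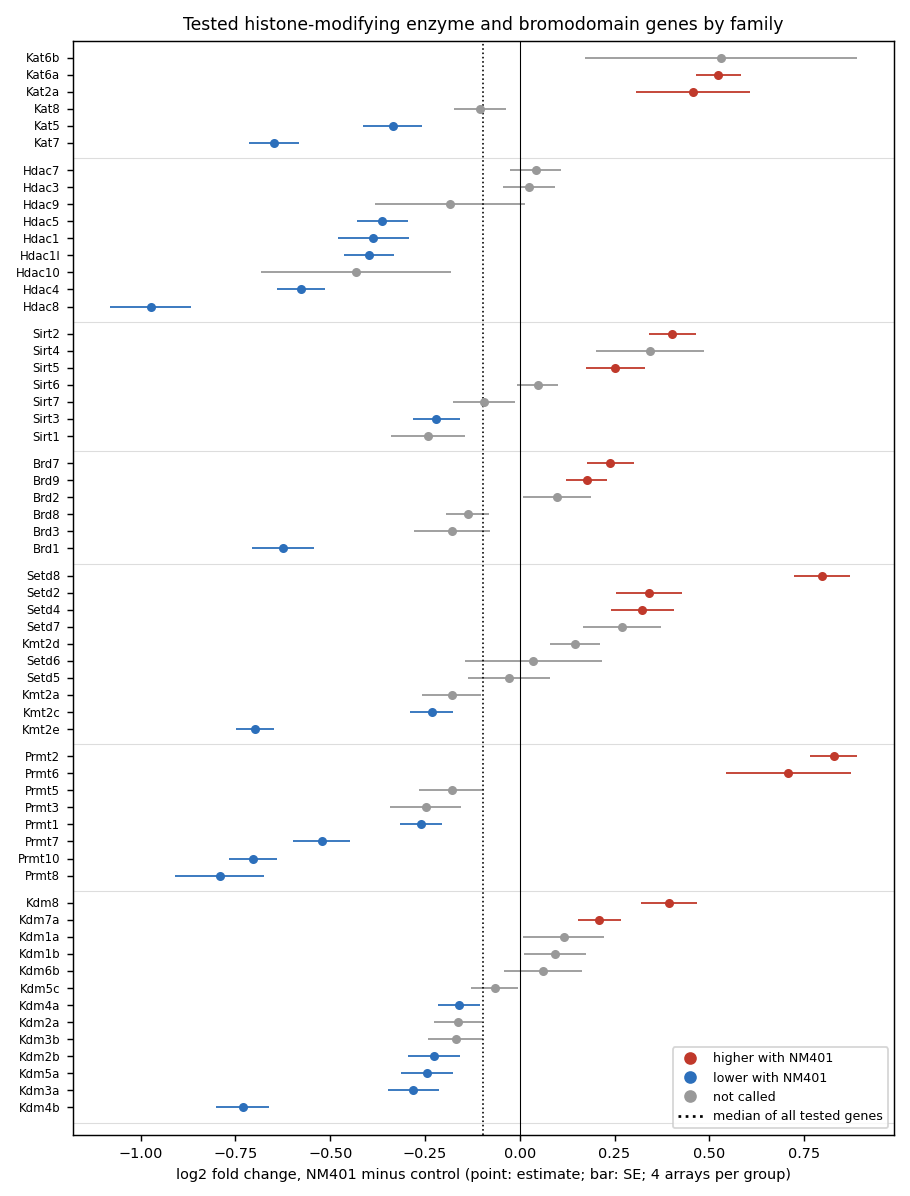
Log2 fold change, NM401 minus control, of 59 of the 60 tested genes grouped by family, with points for the estimates and bars for the SE (4 arrays per group). Red genes rose, blue genes fell and grey genes were not called; the Hdac rows hold no red point under this scaling (with median scaling Hdac7 was called higher), and the dotted line marks the median of all tested genes, -0.10.

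Probes of 3 genes with larger differences are shown here because the array reads a 60-base stretch of each transcript, not the whole. Setd8, named Kmt5a in RefSeq, is read by 3 tested probes. The 2 printed lie toward the start of the transcript, at positions 140 and 526, and were each higher by 0.54, whereas the brightest probe, at position 2604, which gives the value for the gene, is not printed. Their rn4 coordinates are chr12:33270032-33270091 and, across a gap in the genome, chr12:33255146-33258999, both on the minus strand. The Prmt2 probe lies at transcript position 1381 (chr20:12815693-12816478, plus strand, across a gap). The Prmt6 probe shown lies at position 1306 (chr2:205913783-205913842, minus strand) and is the one called lower (-0.46), not the brightest probe at position 3199, and capitals mark a stop codon that closes an otherwise open reading frame. The files do not annotate exons or UTRs, so no other feature is given.
Setd8, position 140: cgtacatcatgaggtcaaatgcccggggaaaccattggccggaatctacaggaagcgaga
Setd8, position 526: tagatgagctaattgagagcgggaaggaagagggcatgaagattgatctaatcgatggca
Prmt2, position 1381: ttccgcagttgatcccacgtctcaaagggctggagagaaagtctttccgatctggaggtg
Prmt6, position 1306: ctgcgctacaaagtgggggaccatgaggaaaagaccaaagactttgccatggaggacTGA

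The brightest Hdac8 probe, at chrX:90531730-90531789 on the minus strand, ends in an alternating TG repeat. Its bases 31 to 60 are printed with the repeat in capitals. It is the single probe among the 100 with an alternating run of at least 15 bases (20 bases here), and 79 of the 45598 probes on the array have such a run (0.173%). Whether transcripts of other genes bind this repeat was not tested.
Hdac8, bases 31 to 60: taataagattTGTGTGTGTGTGTGTGTGTG

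RefSeq start sites, from 250 bases before to 50 after the start on build GRCr8, were available for 55 of the 68 genes. The 4 shown belong to Setd8 and Prmt2, which rose, and to Prmt10 (Prmt9 in RefSeq) and Hdac8, which fell. They and the motifs were chosen after the expression values were seen. Capitals mark matches, on either strand, to CCAAT (the box bound by NF-Y), CCGGAA (the core bound by ETS factors), TGCGCA (NRF1), TGACGTCA (the cyclic AMP response element), CACGTG (E-box) and TGANTCA (AP-1). The windows are chr12:37817977-37818276 (minus strand), chr20:12394065-12394364 (plus), chr19:47318633-47318932 (minus) and chrX:71632816-71633115 (minus).
Setd8: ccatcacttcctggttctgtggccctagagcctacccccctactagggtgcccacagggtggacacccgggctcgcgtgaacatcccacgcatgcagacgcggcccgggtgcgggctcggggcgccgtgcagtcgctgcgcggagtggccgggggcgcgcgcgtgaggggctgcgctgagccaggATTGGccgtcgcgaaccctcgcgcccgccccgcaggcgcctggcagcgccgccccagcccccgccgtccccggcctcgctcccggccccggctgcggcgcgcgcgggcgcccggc
Prmt2: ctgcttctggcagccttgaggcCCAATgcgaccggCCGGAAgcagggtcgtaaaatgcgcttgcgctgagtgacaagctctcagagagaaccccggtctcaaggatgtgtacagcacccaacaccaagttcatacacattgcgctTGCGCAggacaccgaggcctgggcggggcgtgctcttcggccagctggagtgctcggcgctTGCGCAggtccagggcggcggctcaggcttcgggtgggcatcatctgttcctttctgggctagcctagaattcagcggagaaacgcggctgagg
Prmt10: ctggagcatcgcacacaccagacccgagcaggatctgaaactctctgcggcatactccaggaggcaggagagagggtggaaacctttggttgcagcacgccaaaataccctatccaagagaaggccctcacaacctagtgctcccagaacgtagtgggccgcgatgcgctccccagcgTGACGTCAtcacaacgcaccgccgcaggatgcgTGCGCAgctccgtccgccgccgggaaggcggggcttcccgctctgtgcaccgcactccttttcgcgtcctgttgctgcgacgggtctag
Hdac8: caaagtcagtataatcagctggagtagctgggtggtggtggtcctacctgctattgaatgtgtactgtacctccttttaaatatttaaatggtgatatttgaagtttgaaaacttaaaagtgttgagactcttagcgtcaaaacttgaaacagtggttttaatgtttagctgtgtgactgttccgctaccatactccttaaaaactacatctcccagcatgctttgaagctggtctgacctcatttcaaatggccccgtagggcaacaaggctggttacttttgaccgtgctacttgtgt

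The Setd8 window held 43 CpG dinucleotides, the Prmt2 window 22 and the Prmt10 window 26, whereas the Hdac8 window held 4 and none of the motifs. The median was 21 CpG over the 55 windows of these genes and 7 over all 33469 windows in the RefSeq table. CCGGAA was in 30.9% of the 55 windows and 15% of all windows, and TGCGCA in 21.8% and 7.24%. CCAAT was in 45.5% and 37.5%, CACGTG in 10.9% and 6.42%, TGACGTCA in 3.64% and 1.83%, and TGANTCA in 1.82% and 7.33%. Among genes with a window, CCGGAA was in 5 of 11 that rose and 5 of 18 that fell, and TGCGCA in 3 of 11 that rose and 3 of 18 that fell. Where a gene has several listed starts, the first was used. A match describes letters in the window and shows no binding.

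Among the bromodomain genes, Brd1 fell, Brd7 and Brd9 rose, and Brd2, Brd3 and Brd8 were not called. Brd1 (probe at chr7:126994958-126995017), a scaffold of acetyltransferase complexes built on Kat7, had -2.63, -2.36, -2.41 and -2.28 in NM401 and -1.78, -1.74, -1.89 and -1.78 in controls. Every NM401 array lay below every control array. The difference was -0.62 ± 0.08 (SE, 4 arrays per group, limma adjusted p = 0.000492), a scaled signal 0.649 times that of controls. A second Brd1 probe was well above background on no array and was not tested.

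The rises among bromodomain genes were smaller. Brd7, a subunit of a SWI/SNF remodelling complex, averaged 1.15 ± 0.09 in NM401 and 0.91 ± 0.06 in controls (SD, n = 4 each; difference 0.24, limma adjusted p = 0.0126). Brd9, a subunit of another SWI/SNF complex, differed by 0.18 at its brightest probe and 0.30 at a second, both called, and these probes share 13 bases. Neither rise kept its call with slide as a block (adjusted p = 0.242 for Brd7 and 0.0649 for Brd9). Brd2 and Brd3, which bind acetylated histones through paired bromodomains, were not called at their brightest probes: the difference was 0.10 ± 0.09 for Brd2 and -0.18 ± 0.10 for Brd3. With slide as a block each passed the threshold (0.33, adjusted p = 0.0344 for Brd2 and -0.43, adjusted p = 0.0323 for Brd3), and Brd2 also under median scaling (0.30, adjusted p = 0.00984). Each had a dimmer probe that was called lower, by -0.37 ± 0.12 for Brd2 and -0.68 ± 0.11 for Brd3 (SE, limma adjusted p = 0.0288 and 0.0014).

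Of the 6 acetyltransferase genes, Kat6a and Kat2a rose (33.3%, against 21.9% of all genes). Kat7 and Kat5 fell (33.3%, against 35.4% of all genes), and Kat6b and Kat8 were not called. Kat7 (HBO1; probe at chr10:83960246-83960305), an acetyltransferase of histones H3 and H4, had 2.77, 2.71, 2.69 and 2.69 on the NM401 arrays and 3.29, 3.28, 3.52 and 3.38 on the control arrays. The 4 NM401 arrays were close to each other and all below the controls. The difference was -0.65 ± 0.07 (SE, limma adjusted p = 0.000161). A dimmer Kat7 probe, at transcript position 1514 against 3364, showed 0.00 ± 0.27, and the mean of both probes was not called (-0.33, adjusted p = 0.099). Kat6a (MOZ; chr16:73553907-73553966), an H3 acetyltransferase, had -0.04, -0.07, -0.01 and 0.03 in NM401 and -0.46, -0.48, -0.58 and -0.66 in controls. The groups did not overlap and the difference was 0.52 ± 0.06 (SE, limma adjusted p = 0.000268). A second Kat6a probe was also called higher (0.42 ± 0.13), and the remaining Kat6a probe was at 0.13 ± 0.05 and not called.

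Kat5 (TIP60), the catalytic subunit of the NuA4 complex, averaged 1.69 ± 0.06 in NM401 and 2.02 ± 0.14 in controls (SD, n = 4 each; difference -0.34, limma adjusted p = 0.00685). Under median scaling it was not called (-0.13, adjusted p = 0.206). Kat2a (GCN5), the acetyltransferase of SAGA, differed by 0.46 ± 0.15 (SE, adjusted p = 0.0311). It lost its call in 10 of 18 alternatives, and its difference was 0.04 with normexp background correction. Kat6b and Kat8 differed by 0.53 ± 0.36 and -0.11 ± 0.07 (SE). The direction of Kat6b turned with normexp background correction (-0.42, called lower, adjusted p = 0.000679) and with the deposited series values (-0.30, called lower, adjusted p = 0.0208). Kat8 was called lower with both (-0.18, adjusted p = 0.0272 and -0.19, adjusted p = 0.0323). The control arrays of Kat6b ranged over -7.31 to -5.59.

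Of the 9 tested Hdac deacetylases 5 fell (55.6%, against 35.4% of all genes), 4 were not called and none rose (against 21.9% of all genes), with a family median of -0.39. With Hdac1 and Hdac1l counted as 1 gene, 4 of 8 fell and the median was -0.37. Under median scaling Hdac8 and Hdac4 were called lower and Hdac7 higher (0.25, limma adjusted p = 0.0101), against 19.3% lower and 35.0% higher among all genes. Hdac8, a class I enzyme, had -0.71, -0.76, -1.004 and -0.99 in NM401 and -0.10, 0.04, 0.24 and 0.24 in controls. All NM401 arrays were below all controls, by -0.97 ± 0.11 (SE, limma adjusted p = 0.000215), a scaled signal 0.509 times that of controls. This value comes from the probe with the TG repeat printed above. The other tested Hdac8 probes, at chrX:90336493-90358304 (across a gap) and chrX:90387023-90387082, showed -0.52 ± 0.16 (called lower) and -0.16 ± 0.15 (not called), and the mean of the 3 probes was called lower, at -0.55.

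Hdac4, a class IIa enzyme that shuttles between cytoplasm and nucleus, had -0.97, -0.99, -0.94 and -1.08 in NM401 and -0.53, -0.44, -0.38 and -0.31 in controls. The groups did not overlap, and its 2 probes differed by nearly the same amount, -0.58 ± 0.06 and -0.56 ± 0.10 (SE, limma adjusted p = 0.000225 and 0.00166). Hdac5, of the same class, differed by -0.36 ± 0.07 (adjusted p = 0.00251). Hdac1, a class I enzyme of the Sin3 and NuRD corepressors, differed by -0.39 ± 0.09 (adjusted p = 0.0086), and the probe named Hdac1l by -0.40 ± 0.07. Hdac1l probes lie at the same rn4 locus as the Hdac1 probe, and a second Hdac1l probe that shares 33 positions with it was not called (-0.08 ± 0.10). The 2 gene names cannot be told apart here. Hdac1, Hdac5 and Hdac1l were not called under median scaling (adjusted p = 0.245, 0.168 and 0.119). Hdac3 and Hdac7 differed by 0.02 and 0.04, with SEs of 0.07 each, and Hdac9 and Hdac10 by -0.18 ± 0.20 and -0.43 ± 0.25. Hdac2 and Hdac11 were not well above background on any array.

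Among the 7 sirtuins, Sirt2 and Sirt5 rose (28.6%, against 21.9% of all genes). Sirt3 fell (14.3%, against 35.4% of all genes), and Sirt1, Sirt4, Sirt6 and Sirt7 were not called. Sirt2, a mainly cytoplasmic deacetylase of tubulin that also acts on histone H4, had 2.13, 2.29, 2.21 and 2.30 in NM401 and 1.91, 1.85, 1.78 and 1.77 in controls. The groups did not overlap and the difference was 0.40 ± 0.06 (SE, limma adjusted p = 0.000969). Sirt5, a mitochondrial desuccinylase, averaged 0.35 ± 0.07 in NM401 and 0.09 ± 0.13 in controls (SD, n = 4 each), and the ranges overlapped (difference 0.25, adjusted p = 0.0243). Sirt3, the main mitochondrial deacetylase, averaged -2.50 ± 0.05 in NM401 and -2.28 ± 0.09 in controls (difference -0.22, adjusted p = 0.0168). With slide as a block neither was called (adjusted p = 0.123 for Sirt5 and 0.167 for Sirt3). Sirt1, a nuclear deacetylase, differed by -0.24 ± 0.10 (adjusted p = 0.0656) and was called lower with normexp background correction (-0.37, adjusted p = 0.00245).

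**Figure D2:**
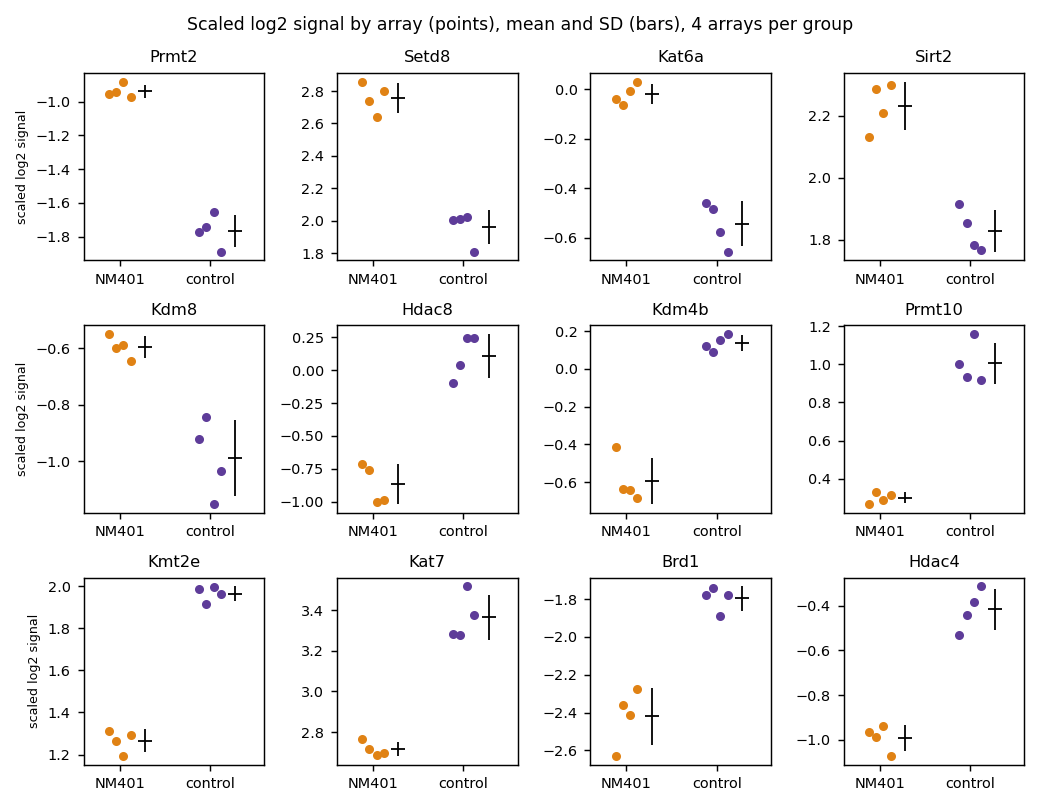
Scaled log2 signal (y axis, a separate range for each gene) of 12 genes on each of the 4 NM401 and 4 control arrays, with the mean and SD of each group as a black bar. The 12 are a selection of called genes without overlap between the groups and do not stand for the 60. Groups did not overlap for 58.3% of the 60 genes and 53.2% of all genes. Prmt2, Setd8, Kat6a, Sirt2 and Kdm8 are higher and the other 7 lower in NM401.

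Of the 10 lysine methyltransferase genes, Setd8, Setd2 and Setd4 rose (30%, against 21.9% of all genes). Kmt2e and Kmt2c fell (20%, against 35.4% of all genes), and 5 were not called. Setd8, which monomethylates histone H4 and is needed for orderly replication and chromosome compaction, had 2.86, 2.74, 2.64 and 2.80 in NM401 and 2.00, 2.01, 2.03 and 1.81 in controls, each the mean of up to 10 spots. Every NM401 array was above every control. The difference was 0.80 ± 0.07 (SE, limma adjusted p = 0.000117), a scaled signal 1.74 times that of controls. Both probes printed above were also called higher, by 0.54 ± 0.09 at position 140 and 0.54 ± 0.06 at position 526, so all 3 tested probes moved the same way.

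Kmt2e (MLL5; probe at chr4:7042101-7042160), a trithorax-related SET-domain protein, had 1.31, 1.26, 1.19 and 1.30 in NM401 and 1.99, 1.92, 2.00 and 1.96 in controls. The groups did not overlap, and the difference was -0.70 ± 0.05 (SE, limma adjusted p = 5.18e-05). A second Kmt2e probe was also called lower, by -0.23 ± 0.08. Setd2, the enzyme that trimethylates histone H3 along transcribed genes, averaged -2.06 ± 0.07 in NM401 and -2.40 ± 0.16 in controls (SD, n = 4 each; difference 0.34, adjusted p = 0.0105). Setd4 differed by 0.32 ± 0.08 (SE, adjusted p = 0.0112). Kmt2c, an H3 methyltransferase of enhancers, differed by -0.23 ± 0.06 (adjusted p = 0.00921). A dimmer Kmt2c probe was at -0.05 ± 0.16 and not called, and the mean of both tested probes was not called (-0.14, limma adjusted p = 0.167). Setd2, Setd4 and Kmt2c were not called with slide as a block (adjusted p = 0.122, 0.25 and 0.215), and Kmt2c was at -0.03 and not called under median scaling (adjusted p = 0.729).

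Kmt2d, an H3 methyltransferase like Kmt2c, gave the widest gap between probes of any of these genes. Its brightest probe (chr7:137600007-137600066, transcript position 23518) differed by 0.15 ± 0.07 and was not called, though it was called higher under median scaling (0.35, adjusted p = 0.0109). A second probe (chr7:137602068-137602127, position 21144) had -1.96, -2.98, -2.91 and -2.85 in NM401 and -0.46, -0.75, -1.86 and 0.24 in controls. Its groups did not overlap, though NM401 replicate 1 and control replicate 3 were close to each other. The difference was -1.97 ± 0.43 (SE, limma adjusted p = 0.00551), and with slide as a block it was -1.25 and not called (adjusted p = 0.175).

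Of the 8 tested arginine methyltransferases, by their brightest probes, Prmt2 and Prmt6 were higher (25%, against 21.9% of all genes), 4 were lower (50%, against 35.4% of all genes) and 2 were not called. Prmt2, which makes asymmetric dimethylarginine and acts as a coactivator of nuclear receptors, had -0.96, -0.94, -0.88 and -0.97 in NM401 and -1.78, -1.74, -1.66 and -1.89 in controls. The groups did not overlap and the difference was 0.83 ± 0.06 (SE, limma adjusted p = 5.76e-05). Its scaled signal was 1.78 times that of controls. Prmt10 (chr19:32192951-32193010), RefSeq's Prmt9, which makes symmetric dimethylarginine on a splicing factor, had 0.27, 0.33, 0.29 and 0.32 in NM401 and 1.00, 0.94, 1.16 and 0.92 in controls. All NM401 arrays were lower, by -0.70 ± 0.06 (SE, adjusted p = 0.000115).

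Prmt7, which monomethylates arginine, averaged -1.26 ± 0.07 in NM401 and -0.73 ± 0.13 in controls (SD, n = 4 each; difference -0.52, limma adjusted p = 0.00075). Prmt1, the main source of asymmetric dimethylarginine, averaged 2.35 ± 0.07 in NM401 and 2.61 ± 0.05 in controls (difference -0.26, adjusted p = 0.0051). A second Prmt1 probe was at 0.05 ± 0.10 and not called, and Prmt1 was not called under median scaling (-0.06, adjusted p = 0.586) or as the mean of its probes (-0.10, adjusted p = 0.215). Prmt8, a membrane-bound enzyme known mainly from brain, differed by -0.79 ± 0.12 (SE, adjusted p = 0.000845). Its signal was dim, well above background on 3 of 4 NM401 arrays and 4 of 4 control arrays. A second Prmt8 probe was well above background on no array and was not tested. Prmt3 and Prmt5 differed by -0.25 ± 0.09 and -0.18 ± 0.09 and were not called.

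Prmt6, which methylates histone H3 arginine, is the gene whose probes opposed each other. Its brightest probe (chr2:205909972-205910031, position 3199) had -4.77, -5.003, -4.72 and -5.09 in NM401 and -5.59, -5.24, -5.56 and -6.03 in controls, and was called higher by 0.71 ± 0.17 (SE, limma adjusted p = 0.00729). The probe printed above, at position 1306, was called lower by -0.46 ± 0.10 (adjusted p = 0.00609). Both probes were dim, each well above background on 4 of 4 NM401 and 3 of 4 control arrays. The direction of the brightest probe turned with normexp background correction (-0.26, called lower, adjusted p = 0.00966) and with the deposited series values (-0.15, not called). No direction for Prmt6 as a gene follows from these values.

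Of the 13 tested lysine demethylases, Kdm8 and Kdm7a rose (15.4%, against 21.9% of all genes), 5 fell (Kdm4b, Kdm3a, Kdm5a, Kdm2b and Kdm4a; 38.5%, against 35.4%) and 6 were not called. Kdm4b, a demethylase of trimethylated histone H3, had -0.41, -0.64, -0.64 and -0.68 in NM401 and 0.12, 0.09, 0.15 and 0.19 in controls. The groups did not overlap and the difference was -0.73 ± 0.07 (SE, limma adjusted p = 0.000132). A second probe, at transcript position 4343 against 4544, was at -0.32 ± 0.12 and not called (adjusted p = 0.0517). Kdm8 (JMJD5), a JmjC-domain oxygenase, had -0.55, -0.60, -0.59 and -0.64 in NM401 and -0.92, -0.84, -1.15 and -1.04 in controls. All NM401 arrays were higher, by 0.39 ± 0.07 (SE, adjusted p = 0.00262).

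At the brightest probes, the other demethylase changes were at most 0.28 in size. Kdm3a, which removes methyl groups from H3 and responds to low oxygen, differed by -0.28 ± 0.07 (SE, limma adjusted p = 0.00793). Kdm5a, which removes H3 methylation found at active promoters, differed by -0.24 ± 0.07, Kdm2b by -0.23 ± 0.07 and Kdm4a by -0.16 ± 0.06. Kdm7a differed by 0.21 ± 0.06 (adjusted p = 0.0134). None of these 5 was called with slide as a block: the adjusted p was 0.171 for Kdm3a, 0.0692 for Kdm5a, 0.19 for Kdm2b, 0.111 for Kdm4a and 0.23 for Kdm7a. Under median scaling Kdm5a was at -0.04 (adjusted p = 0.719) and Kdm3a at -0.08 (adjusted p = 0.367), and Kdm4a turned to 0.04 (adjusted p = 0.626). Dimmer probes of Kdm5a were at -0.42 ± 0.12 (SE, called lower) and -0.13 ± 0.07 (not called). A dimmer Kdm5c probe was called lower by -0.30 ± 0.07, whereas its brightest probe was not called. A dimmer Kdm7a probe was at 0.05 ± 0.08 and not called, and neither was the mean of both Kdm7a probes (0.13). Kdm2b kept its call in 9 of 18 alternatives and Kdm4a in 3 of 18. Kdm6b (JMJD3), an H3 demethylase known for its induction in activated macrophages, was not called: it averaged -2.56 ± 0.03 in NM401 and -2.62 ± 0.22 in controls (SD, n = 4 each). Of the genes not tested, Kdm4c, Kdm4d, Kdm5b and Kdm5d were well above background on no array. The same held for the probe named Kdm6a on the array, which RefSeq names Uty, so it gives no level for Kdm6a itself. The Kdm4dl2 probe had no usable spot on at least 1 array.

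Probes of the same gene often differed in size. Of 21 genes with at least 2 tested probes, 4 had all probes called in the same direction (Setd8, Hdac4, Kmt2e and Brd9), 13 had some probes called in a single direction, 3 had none called and 1, Prmt6, had calls in opposite directions. Among all 3315 genes with at least 2 tested probes, 5.67% had calls in opposite directions. The gap between the lowest and highest probe of a gene had a median of 0.36 and reached 2.11, for Kmt2d. For the 19 genes whose probes have coordinates, probes were ordered by rn4 coordinate and strand. The probe nearest the 3′ end in that order was the more positive in 9 and the more negative in 10, with a median difference of -0.01. Some genes, such as Hdac8, have probes for different transcripts, so this order need not hold along a single transcript. This comparison of probe order was added after the values were seen.

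**Figure D3:**
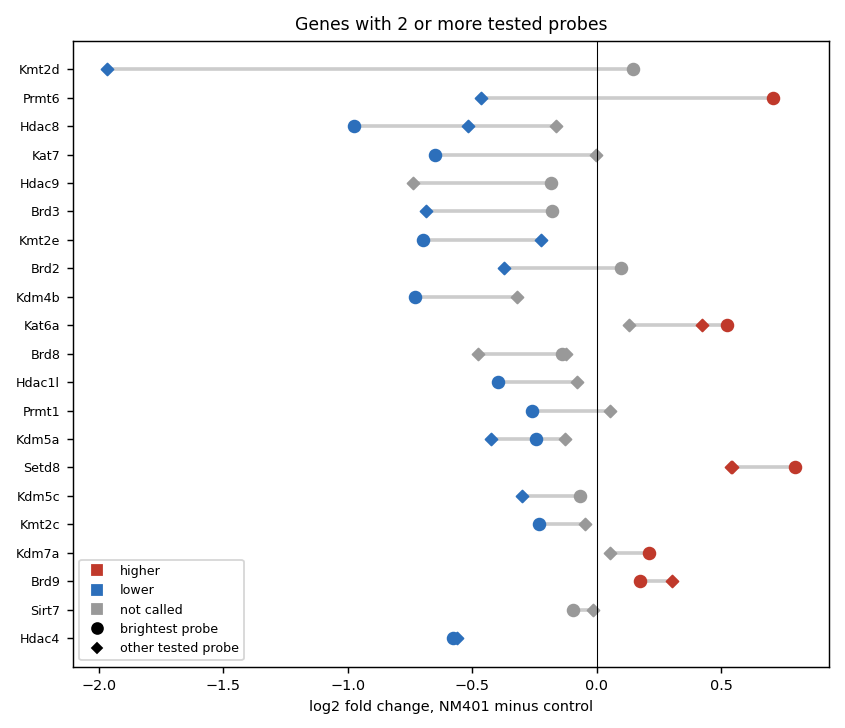
Log2 fold change, NM401 minus control, of every tested probe for the 21 genes with at least 2 of them; circles are the brightest probe, diamonds the others, and colours give the call. Prmt6 is the only row with a red and a blue point, and Kmt2d spans the widest range.

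The complexes these enzymes work in were followed with a list of 111 other genes: subunits of their complexes, further writers, erasers and readers, and factors of transcription elongation. Of 105 that could be tested, 25 rose, 34 fell and 46 were not called, with a median of -0.03. That is 23.8% higher and 32.4% lower, near the 21.9% and 35.4% of all genes given above. Among the genes that rose, Sap30, a subunit of the Sin3 corepressor, averaged 0.24 ± 0.09 in NM401 and -0.47 ± 0.14 in controls (SD, n = 4 each; limma adjusted p = 0.000262). Sin3a, the scaffold of that complex, fell: it averaged -1.45 ± 0.11 in NM401 and -0.70 ± 0.19 in controls. Rbbp4, a histone chaperone shared by Sin3, NuRD and PRC2, averaged 2.05 ± 0.07 in NM401 and 2.86 ± 0.10 in controls (difference -0.81, adjusted p = 8.31e-05). The subunits of the Sin3 complex thus did not move in a single direction.

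Cdk9, the kinase of the elongation factor P-TEFb, rose by 0.53 ± 0.09 (SE, limma adjusted p = 0.00136), while its cyclin Ccnt1 differed by 0.26 ± 0.17 and its inhibitor Hexim1 by -0.13 ± 0.06, neither called. Jmjd6, a JmjC-domain hydroxylase, rose by 0.62 ± 0.07, and Dpy30, a subunit of the Kmt2 complexes, by 0.49 ± 0.09. Ring1, a PRC1 ubiquitin ligase, rose by 0.51 ± 0.09, though with slide as a block it was not called (0.25, adjusted p = 0.0591). Rcor3, of the CoREST family, rose by 0.62 ± 0.11 but was at 0.15 and not called with normexp background correction (adjusted p = 0.0535).

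The largest fall in that list was Suv39h2, an H3 methyltransferase of heterochromatin, which averaged -5.10 ± 0.21 in NM401 and -3.71 ± 0.16 in controls (SD, n = 4 each; difference -1.39, limma adjusted p = 9.84e-05). Hr (hairless), a JmjC-domain corepressor, fell by 1.11 on the log2 scale, with a SE of 0.21. Sp100, a bromodomain protein of nuclear bodies, averaged 0.12 ± 0.03 in NM401 and 1.099 ± 0.13 in controls (adjusted p = 5.52e-05). Cecr2, a bromodomain remodeller subunit, differed by -1.15 ± 0.36 and was well above background on 2 of 4 NM401 arrays. Its groups overlapped, and with slide as a block its difference was -0.02.

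Scaling decided how many of the 60 genes counted as higher or lower. With each array centred on its median in place of its 75th percentile, 21 of the 60 genes were called higher and 10 lower, against 35.0% higher and 19.3% lower among all genes, and the median of the 60 became 0.05. With quantile normalisation 16 were higher and 19 lower, against 27.4% and 27.9% of all genes. With normexp background correction 11 were higher and 32 lower, against 15.7% and 53.9% of all genes. The median of all genes under these was 0.11, -0.01 and -0.24, so the side of 0 on which a small difference lies depends on the scaling. Of the 34 called genes, 11 were not called under median scaling: Hdac1, Hdac1l, Hdac5, Kat5, Kdm2b, Kdm3a, Kdm4a, Kdm5a, Kmt2c, Prmt1 and Sirt3. With normexp, 11 genes outside the 34 were called, all lower: Hdac9, Hdac10, Kat6b, Kat8, Kdm2a, Kdm3b, Kmt2a, Prmt3, Setd6, Sirt1 and Sirt4.

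With slide as a block, 6 of the 60 genes were called higher and 17 lower, against 12.7% and 20.2% of all genes, and 20 of the 34 called genes kept their call and direction. The 14 that were not called then were Brd7, Brd9, Kat2a, Kdm2b, Kdm3a, Kdm4a, Kdm5a, Kdm7a, Kmt2c, Prmt6, Setd2, Setd4, Sirt3 and Sirt5, and Brd2, Brd3 and Kmt2a were called in addition. Within slide 1, 2 were higher and 6 lower, against 4.33% and 7.80% of all genes, and 8 of the 34 kept their call. All 34 kept the sign of their difference with slide as a block, and the fit within slide 1 gives the same differences, because only slide 1 holds both groups. These 2 fits rest on NM401 replicate 1 as the single NM401 array beside controls on the same slide, which is taken to vary like the other arrays. Across every alternative in which they could be tested, 8 of the 34 kept call and direction: Setd8 and Prmt2, higher, and Kmt2e, Prmt10, Prmt8, Brd1, Hdac8 and Kdm4b, lower. For Setd8 the difference ranged from 0.63 to 1.00 over the alternatives, for Prmt2 from 0.66 to 1.03 and for Kmt2e from -0.72 to -0.46. No alternative scaled the arrays on the spike-in probes, so directions under that scaling were not tested. The spike-in difference of -2.29 was larger in size than any of the 60 genes' reported differences, which spanned -0.97 to 0.83. Prmt2, Prmt10, Prmt8 and Brd1 each had a single tested probe, so taking the mean of a gene's probes could not change their difference. Hdac4, Kat6a, Sirt2, Kdm8 and Prmt7 lost their call in a single alternative, the fit within slide 1.

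**Figure D4:**
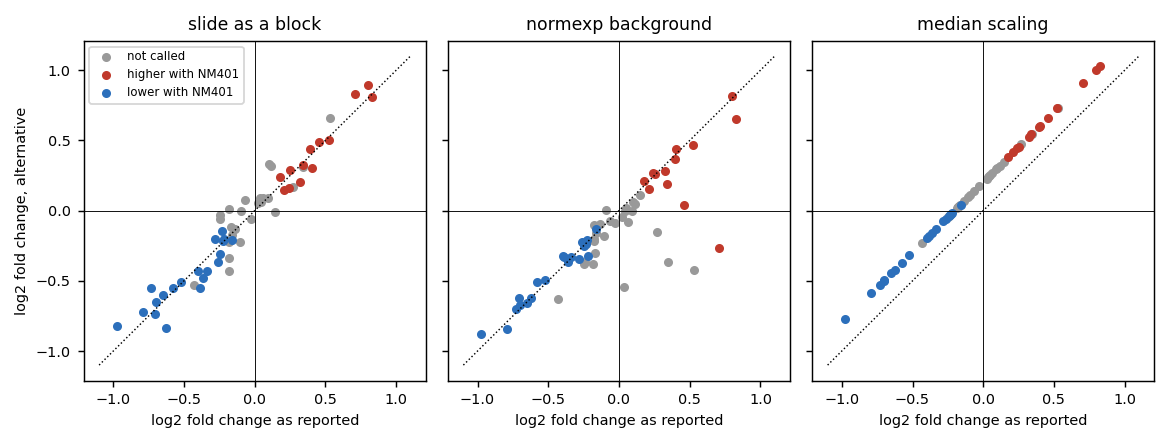
Log2 fold change, NM401 minus control, of 59 tested genes as reported (x axis) against the same with slide as a block, normexp background correction or median scaling (y axis), coloured by the call as reported. The dotted line marks equal values: median scaling lifts all points above it, and with normexp Prmt6 is the red point below 0.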

How the data were processed

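Total RNA from 8 NR8383 samples was labelled with cyanine-3 for Agilent arrays read in a single colour, as the labels' protocols state. The deposited scanner files hold signal intensity for 62976 spots per array, made with Agilent Feature Extraction 11.0.1.1, per the submitters' processing notes, and the probe coordinates are on rn4, per the file headers. The processed intensity is background-corrected by that software, so dim spots carry more error. The authors' deposited series table equals the scanner's median pixel intensity in 503808 of 503808 values and was used as an alternative.

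Control spots were left out, as were spots marked as outliers. The processed signal was taken to log2, the 75th percentile of each array was subtracted, and spots of a probe were averaged. A probe was tested if well above background on at least 4 of 8 arrays. Groups came from the labels and were compared with limma 3.58.1 (R 4.3.3; lmFit and eBayes, two-sided), with Benjamini-Hochberg adjustment over 21684 probes and all 8 arrays in the fit. In simulated data over 21684 probes, independent normal noise was drawn for each array and 50 probes were changed at each size. There, 88% of changes of -1, 78% of 1, 44% of -0.5 and 48% of 0.5 (log2) were recovered, with 8 false calls. The simulation changed few probes and held no slide or row effect, whereas 57.3% of genes were called in the real data. Its rates of recovery and of false calls therefore do not carry over to the calls reported here. Arrays count no molecules, and their number limits the precision.

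Named genes were, in each family, up to 4 tested genes with the smallest p, plus every called gene with a log2 difference of at least 0.58 and no overlap between groups, plus genes with opposite calls. Of the list of complexes, up to 6 called genes with the largest difference in each direction were named. Of the genes this rule names, 1 is not reported here. Other genes were named from their values after these were seen. Members, lists and tests were chosen with earlier results of these data known. RefSeq (GRCr8 table) named 71 of the 100 probes, and for 5 the symbol differed from the array's. The 7 spike-in probes, of 10, were those with a mean scaled log2 signal above -5, a limit set after the values were seen. Alternatives were normexp background correction, quantile normalisation, median scaling, the series table, other filters on dim probes, the mean of a gene's probes, slide as a block, a fit within slide 1, replicate number as a block, and leaving out each array. Counting Hdac1 and Hdac1l once was added after seeing the data.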

Additional observations from a re-analysis of the deposited data

Results flagged for a closer look

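In 8 of 120 groups of 4 arrays (6.67%), a single array lay apart from the other 3 by more than Dixon's 95% limit for 4 values, and chance alone is known to give about 5 in 100. On NM401 replicate 1, Brd3 was at -2.307 against -1.98 to -1.97 on the other 3 NM401 arrays, Kdm4b was at -0.413 against -0.68 to -0.64, and the brightest Kmt2d probe was at -0.759 against -0.57 to -0.54 (scaled log2 signal). NM401 replicate 1 is also the NM401 array that shared a slide with the controls. Sirt3 was at -2.574 on NM401 replicate 2, Sirt5 at 0.242 on NM401 replicate 3 and Hdac1l at -0.324 on NM401 replicate 4. Among controls, replicate 4 was low for Setd8, at 1.808 against 2.00 to 2.03, and for Kdm1a, at -1.328 against -1.05 to -1.03. Without control replicate 4, Setd8 kept its call.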

How the results depend on the processing

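Counts and medians of the 60 genes moved with scaling, background correction and slide. With median scaling 21 genes were higher and 10 lower, the median turned to 0.0548, and the list of complexes had 42 higher and 18 lower. With normexp background correction 32 were lower and the median was -0.20, with quantile normalisation the median was -0.085, and with the deposited series values it was -0.19. With no filter on dim probes 8 were higher, where more probes entered the adjustment. The slide block left 6 higher, the median was -0.0624, and the list of complexes had 12 higher and 22 lower. Within slide 1 there were 2 higher and 6 lower, a median of -0.0624, and 3 higher and 6 lower in that list. For these scaling and slide settings the cause was not tested, except that the slide fits use fewer comparable arrays. Leaving out each array gave 10 to 14 higher, 19 to 23 lower and medians of -0.15 to -0.12, with 19 to 29 higher and 30 to 35 lower in the list of complexes. Prmt6 turned to -0.26 with normexp and -0.15 with the series values; the cause was not tested. The filter on all 8 arrays kept 32 of 32 calls still tested, because Prmt6 and Prmt8 were no longer tested.

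Correlations between the deviations of same-numbered NM401 and control arrays were 0.188, -0.007, 0.085 and -0.056. For NM401 and control arrays with different numbers they ranged from -0.295 to 0.172. With so few arrays in each group, these correlations cannot decide whether the replicate numbers pair the samples. A replicate block left 11 higher and 21 lower calls, and 31 of the 34 reported calls remained. Spots with dim signal, such as those of Prmt6, Prmt8 and Kat6b, limit what can be read at low levels.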
